A study of Mus musculus with 2 samples.

Results

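The genes described here encode the chains of the fibrillar collagens of types I, III and V and of 2 collagens that lie beside those fibrils, types VI and XII. They were taken by name, as 10 listed genes, and not by a rule on their measured values, although earlier results of these data were known. All 10 were found among the 43346 gene rows of the tables, of which 42462 matched a symbol. RNA longer than 200 nt was sequenced from the facial prominences of mouse embryos of strain B6NCrl at embryonic day 13.5, with 10 ng of RNA per library. The facial prominences are the swellings that form the jaws, nose and palate. There is 1 group of 2 libraries, both from healthy embryos of pooled sex with no treatment or genetic change named, labelled as biological replicates 1 and 2 and tied to the same donor record. With 1 group no contrast between conditions exists, so the values are levels with their spread between the libraries and carry no p-value.

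Collagens are the main structural proteins of connective tissue. Each chain holds a long stretch in which glycine recurs as the first of each 3 residues, and chains with such stretches wind around each other into a rope-like helix. Type I and type III molecules pack into banded fibrils that carry tension in skin, tendon, bone and loose mesenchyme, and type V is a minor partner inside those fibrils that sets how they start and how thick they grow. Type VI forms fine beaded filaments close to cells, and type XII is a bridging collagen that sits on the surface of fibrils. In the embryonic face they are made largely by the mesenchyme, much of it of neural crest origin, and by the bone-forming cells that arise from it.

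The glycine repeat can be read directly from the exons. The lines that follow give an exon for each of the 6 fibrillar genes and Col6a1, 5′ to 3′ on the coding strand, from the GENCODE M21 transcripts on GRCm38. It is the first internal coding exon of the gene's commonest length that lies within its longest glycine repeat and opens on a glycine codon of that repeat. The capitals mark the glycine codon that opens each group of 3 codons.
Col1a1 exon 8, chr11:94939904-94939957, plus strand: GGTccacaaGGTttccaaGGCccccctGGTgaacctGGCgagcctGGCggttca
Col1a2 exon 8, chr6:4515481-4515534, plus strand: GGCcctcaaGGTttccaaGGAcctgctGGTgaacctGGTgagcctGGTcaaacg
Col3a1 exon 6, chr1:45325360-45325413, plus strand: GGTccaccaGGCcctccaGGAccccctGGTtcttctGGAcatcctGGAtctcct
Col5a1 exon 15, chr2:27965251-27965304, plus strand: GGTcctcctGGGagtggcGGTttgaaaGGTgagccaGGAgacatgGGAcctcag
Col5a2 exon 10, chr1:45422386-45422439, minus strand: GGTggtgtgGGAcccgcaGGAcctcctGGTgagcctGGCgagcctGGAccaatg
Col5a3 exon 15, chr9:20801068-20801121, minus strand: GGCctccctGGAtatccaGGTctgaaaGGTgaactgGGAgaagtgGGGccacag
Col6a1 exon 15, chr10:76717795-76717857, minus strand: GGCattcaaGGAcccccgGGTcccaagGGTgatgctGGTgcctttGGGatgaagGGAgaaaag

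Each of the 6 fibrillar exons is 54 nt long, the commonest length in its gene, and was picked to open on a glycine codon. Among the internal coding exons of the 6 fibrillar genes, 153 of 329 (46.5%) were exactly 54 nt long. A length that 9 divides, which is a whole number of groups of 3 codons, was found in 83.0%. The glycine content of those exons was not checked. For comparison, each protein-coding nuclear gene was represented by its complete coding transcript with the longest coding sequence. Over the 157257 internal coding exons of those transcripts the shares were 0.738% and 14.3%. The 3 type VI genes had 8 exons of 54 nt among 96 (8.33%) and 57.3% with a length that 9 divides. Their commonest length was 63 nt, as in the Col6a1 exon above. Col12a1, whose protein is mostly made of other domains, had 4 of 63 exons at 54 nt (6.35%) and 22.2% divisible by 9. The longest unbroken glycine repeat ran over 1014 codons in Col1a1, 1017 in Col1a2, 1032 in Col3a1, 1014 in Col5a1, 1017 in Col5a2 and 1011 in Col5a3. It covered 261 codons in both Col6a1 and Col6a2, 135 in Col6a3 and 96 in Col12a1. These are properties of the annotated sequence and were not measured in the libraries.

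The libraries held 30451502 expected counts (estimated reads) in total in replicate 1 and 23777465 in replicate 2, of which 6.27% and 4.45% belonged to ERCC spike-ins. The 5 mesenchyme markers (Prrx1, Msx1, Twist1, Pdgfra, Alx1) were all detected and summed to 923 and 906 TPM, a transcript abundance scaled by length to the same total in each library. Replicate 2 stood apart in other markers. Its 4 liver markers (Alb, Afp, Apoa1, Ttr) summed to 193 TPM against 3.47 in replicate 1, and its 4 heart markers (Myh6, Nppa, Myl7, Nkx2-5) to 19.8 against 1.71. In each result below the replicate 1 value is therefore given beside that of replicate 2. In bulk tissue a smaller number of cells of a type and less RNA per cell cannot be told apart.

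The fibrillar chains of types I and III led the set by a wide margin. TPM is scaled by transcript length so that levels can be compared between genes, but the gene value also sums short annotated fragments. The order below is that of the gene values. Over complete coding transcripts alone (those annotated as coding with both ends), Col1a1 stood above Col3a1. On that scale Col6a3 and Col12a1 had means of 31.4 and 17.2 TPM, against 92.3 and 75.2 at the gene level. Col3a1, the only chain of type III collagen, stood at 1137 TPM in replicate 1 and 1089 in replicate 2, or 1113 ± 34.1 (SD, n = 2), and ranked 58 in both libraries among 21461 protein-coding genes. Col1a1, the alpha 1 chain of type I collagen, stood at 946 and 815 TPM (881 ± 92.9) and ranked 78 and 100. Col1a2, the alpha 2 chain of type I, stood at 676 and 636 TPM (656 ± 28.7), at ranks 138 and 145. At the gene level the values of these 3 genes did not overlap: the lower library of each lay above the higher library of the next. Types I and III together took 82.5% of the expected counts of the 10 genes in replicate 1 and 79.9% in replicate 2. The 10 genes took 1.23% and 1.08% of all gene-row counts (1.15% ± 0.107).

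The type VI genes Col6a2 and Col6a1 came next, at the gene level and over complete coding transcripts. In expected counts, which are not divided by length, the type V genes Col5a1 and Col5a2 stood above all type VI genes. Col6a2 stood at 135.8 TPM in replicate 1 and 133.3 in replicate 2, and Col6a1 at 131.3 and 134.1, so their order switched between the libraries. Both encode short chains that join the long Col6a3 chain in each type VI molecule. Col6a3 stood at 80.7 and 103.8 TPM (92.3 ± 16.3), with the higher value in replicate 2. Col12a1, the chain of type XII, showed the same direction, with 63.5 TPM in replicate 1 and 86.9 in replicate 2 (75.2 ± 16.5). These 2 genes had the widest spread of the 10, with coefficients of variation of 17.7% and 22.0%, against 1.32% for Col6a2 and 1.5% for Col6a1.

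The 3 type V chains were unequal. Col5a2 stood at 99.5 and 96.0 TPM (97.7 ± 2.49) and Col5a1 at 77.8 and 87.0 TPM (82.4 ± 6.47). Col5a3, the third type V chain, was at 0.53 and 0.62 TPM, from 67 and 60 expected counts, and its credibility bounds were 0.417 to 0.674 in replicate 1 and 0.474 to 0.787 in replicate 2. It was the one gene of the 10 below 1 TPM in either library. In both libraries 9 of 10 genes reached 1 TPM, as did 60.9% of all protein-coding genes, and 5 of 10 reached 100 TPM, as did 6.43%.

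**Figure D1:**
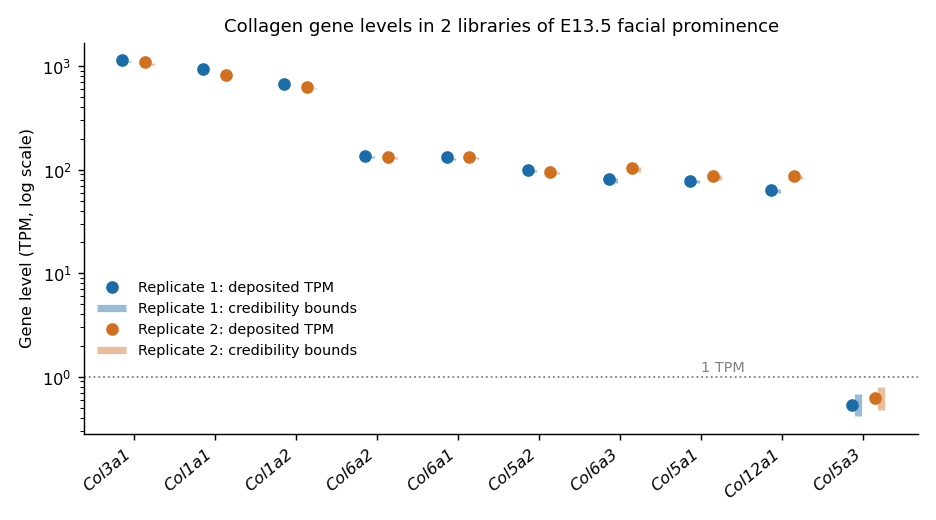
Gene levels of the 10 collagen genes in TPM on a log axis, with 1 point per library (blue replicate 1, orange replicate 2) and the deposited credibility bounds as pale bars beside each point. Col3a1, Col1a1 and Col1a2 sit between 636 and 1137 TPM, 6 genes sit between 63.5 and 135.8, and Col5a3 lies below the dotted line at 1 TPM, the only gene whose bounds are wide enough to see clearly.

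Neighbours in this order were called apart where the deposited credibility bounds did not overlap in either library and the order was the same in both. The bounds surround the posterior mean of TPM and not the TPM column, and their level is not stated in the file headers. In both libraries the TPM of Col1a1, Col1a2, Col3a1, Col5a2, Col6a1 and Col6a2 lay above its own upper bound. The rule therefore compares posterior values and not the TPM printed here. Of the 9 neighbouring pairs, 5 were apart. Col3a1 over Col1a1, Col1a1 over Col1a2, Col1a2 over Col6a2, Col6a1 over Col5a2 and Col12a1 over Col5a3 met the rule. Col6a2 and Col6a1, Col5a2 and Col6a3, Col6a3 and Col5a1, and Col5a1 and Col12a1 did not. At the gene level, neighbouring pairs between 63.5 and 103.8 TPM therefore could not be ordered. Pairs in that range that are not neighbours did meet the rule, namely Col5a2 over Col5a1, Col5a2 over Col12a1 and Col6a3 over Col12a1.

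Ratios between chains of the same collagen kept their sign in both libraries, except that of Col6a1 to Col6a2. Type I molecules hold more alpha 1 than alpha 2 chains, and Col1a1 exceeded Col1a2 by 0.48 in replicate 1 and 0.36 in replicate 2 on the log2 TPM scale (0.42 ± 0.09), which is 1.40-fold and 1.28-fold. Col5a1 was below Col5a2 by 0.35 and 0.14 on that scale (a log2 ratio of -0.25 ± 0.15). Over complete coding transcripts the ratio was -0.30 and -0.34 (-0.32 ± 0.03), but in expected counts, which are not divided by length, it turned to 0.026. Col6a1 and Col6a2 differed by -0.05 and 0.01 (-0.02 ± 0.04), less than the spread between the libraries. Col6a3 was below Col6a1, at -0.70 and -0.37 (-0.54 ± 0.23), and further below it over complete coding transcripts alone (those annotated as coding with both ends), at -2.26 and -1.91 (-2.09 ± 0.24). Col5a2 exceeded Col5a3 by 7.55 and 7.27 (7.41 ± 0.20), or 188-fold and 155-fold.

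Across collagen types the fibrillar partners differed by an order of magnitude. Col1a1 exceeded the type V chain Col5a1 12.2-fold and 9.37-fold, a log2 TPM ratio of 3.42 ± 0.27. Col3a1 exceeded Col5a2 by 3.51 in replicate 1 and 3.50 in replicate 2, an SD of 0.01. This small SD depended on the unit: over complete coding transcripts the ratio was 3.14 and 2.98 (SD 0.11), and in expected counts it was 2.86 with an SD of 0.10. Col12a1 was below Col1a1, with a log2 ratio of -3.90 in replicate 1 and -3.23 in replicate 2 (-3.56 ± 0.47), and over complete coding transcripts the ratio was -6.07 and -5.31 (-5.69 ± 0.53). Its SD was the widest of the 9 ratios on each of these scales.

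The position of Col3a1 above Col1a1 depended on how transcripts entered the sum. At the gene level the log2 TPM ratio of Col3a1 to Col1a1 was 0.26 and 0.42 (0.34 ± 0.11). Counted over complete coding transcripts alone, it was -0.17 and -0.15 (-0.16 ± 0.01), with Col3a1 at 841 and 731 TPM and Col1a1 at 943 and 810 TPM. In expected counts Col1a1 also led, with 116348 and 76186 against 101386 and 68234 for Col3a1. The difference lies in Col3a1-205, a 737 nt annotated transcript from the interior of the gene, with both ends incomplete. Col3a1-205 joins part of exon 37 of Col3a1-201 to part of exon 47 and lacks the exons between them. It held 24.9% and 31.6% of the Col3a1 TPM but 3.76% and 5.18% of its expected counts.

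The isoform tables held 46 transcripts of the 10 genes, of which 14 are complete coding, 7 incomplete coding, 24 not coding and 1 absent from M21. A single complete coding transcript carried nearly all the TPM in 5 genes in both libraries. These were Col1a1-201 with 99.7% and 99.4%, Col6a1-201 with 99.4% and 99.6%, Col6a2-201 with 97.0% and 97.1%, Col5a2-201 with 96.0% and 96.7%, and Col5a3-201 with 96.2% and 100% of few reads. Col1a2-201 followed with 93.6% and 92.9%. Col5a1 differed between the libraries: Col5a1-201 held 100% in replicate 1 and 84.2% in replicate 2, where the 1049 nt incomplete transcript Col5a1-202 took 15.8% of the TPM from 210 expected counts against 0 in replicate 1.

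Short annotated fragments carried much of the TPM of Col6a3 and Col12a1. The leading Col6a3 transcript by TPM was Col6a3-206, a 646 nt transcript with a retained intron near the 3′ end, with 46.4% and 53.0% of the gene's TPM from 434 and 485 expected counts. The complete coding Col6a3-202, 9001 nt long, held 33.8% and 32.7% of the TPM and 82.0% and 79.0% of the counts. The incomplete 5′ transcript Col6a3-207 held 10.7% and 4.86% of the TPM, and Col6a3-203 held 5.85% and 4.98%. In Col12a1 the leading transcript by TPM was Col12a1-204, 1784 nt from the 3′ end of the gene with an incomplete start, at 46.2% and 47.0%. Col12a1-206, with a retained intron in the 5′ part of the gene, held 25.04% and 24.75% of the TPM, the full-length Col12a1-201 held 21.7% and 22.7%, and the retained-intron transcript Col12a1-203 held 5.87% and 4.31%. By counts, Col12a1-201 held 58.0% and 59.5%. Counted over complete coding transcripts alone, Col6a3 stood at 27.3 and 35.5 TPM and Col12a1 at 14.1 and 20.4.

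**Figure D2:**
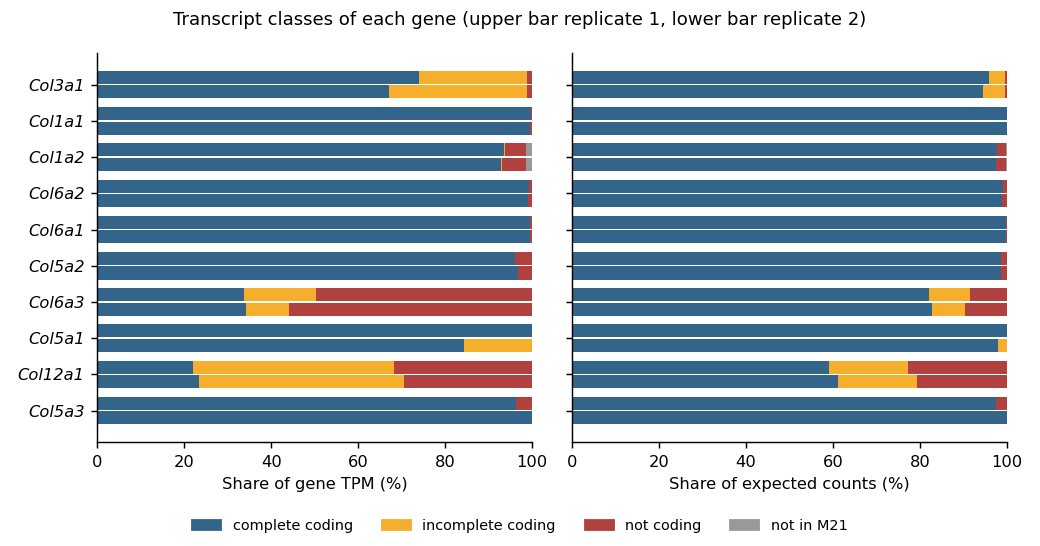
Shares in percent of each gene's TPM (left) and expected counts (right) held by complete coding, incomplete coding and non-coding transcripts and by the transcript absent from M21, with the upper bar for replicate 1 and the lower bar for replicate 2. Col6a3, Col12a1 and Col3a1 have the longest bars outside the complete coding class on the left, and all of these are shorter on the right, where Col3a1 has 95.9% and 94.4% of its counts in complete coding transcripts.

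Such shares are common in these tables. Col3a1, Col6a3 and Col12a1 had 25% or more of their TPM outside complete coding transcripts in both libraries, which is 3 of the 9 collagen genes at 5 TPM or more with over 1 transcript. Among the 7751 protein-coding genes of that kind the share was 35.0%, so the 3 collagen genes are near the background. The median share outside complete coding transcripts over those genes was 14.95% in replicate 1 and 15.12% in replicate 2.

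**Figure D3:**
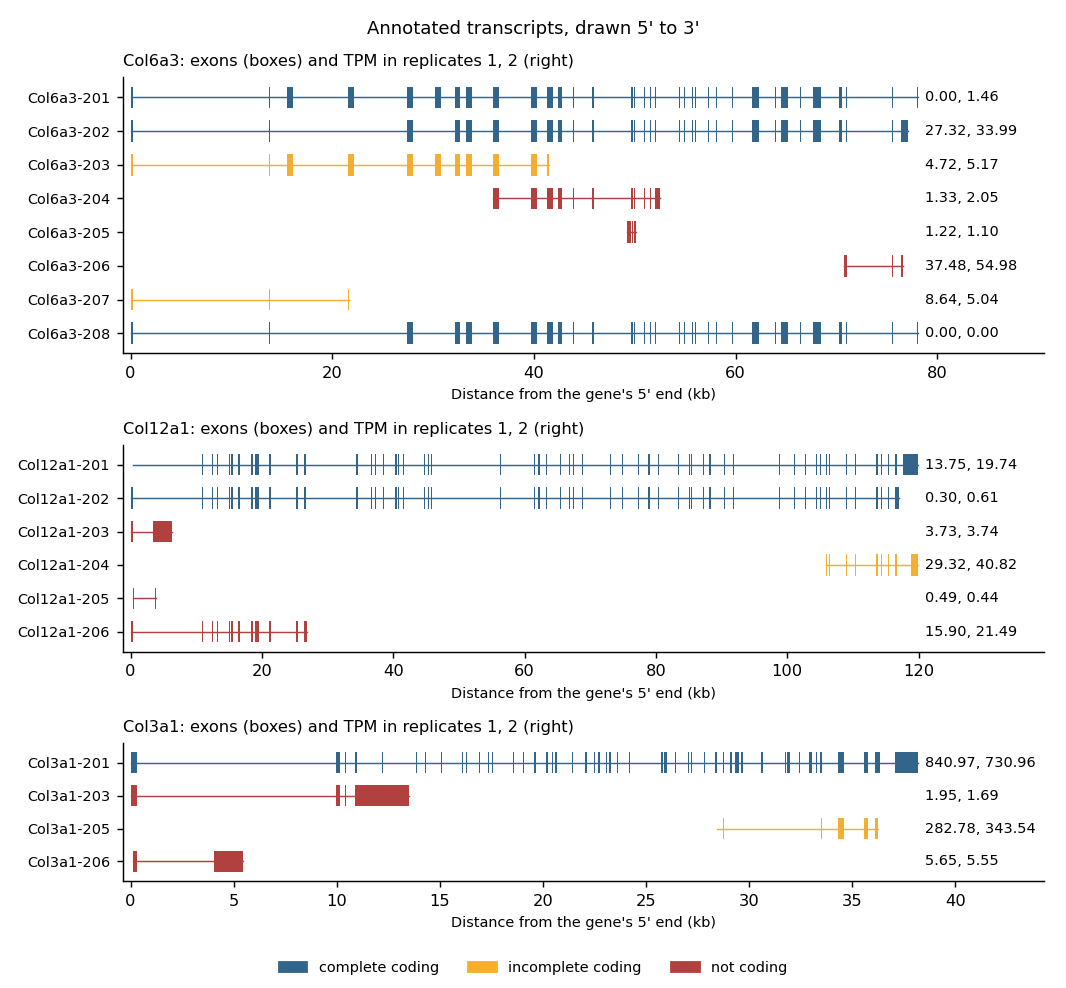
Exons (boxes, the narrowest drawn at a minimum visible width) and introns (lines) of the annotated transcripts of Col6a3 and Col12a1 and of 4 Col3a1 transcripts, by distance from the gene's 5′ end in kb, coloured by class, with TPM in replicates 1 and 2 printed at the right. The short transcripts Col6a3-206 (37.5 and 55.0 TPM), Col12a1-204 (29.3 and 40.8 TPM) and Col3a1-205 (282.8 and 343.5 TPM) lie in the 3′ part of their genes, and their exons cover a small part of the full-length models.

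Col6a3 carries alternative exons, and the transcripts with them held less TPM than the full-length transcripts without them in both libraries. Exons 3, 4 and 6 of Col6a3-201, of 618, 603 and 600 nt, are present whole in Col6a3-201 and Col6a3-203 and absent from Col6a3-202 and Col6a3-208. The short incomplete Col6a3-207 joins exon 2 to 134 nt of exon 4, without exon 3, and ends there. They lie at chr1:90827860-90828477, chr1:90821802-90822404 and chr1:90813215-90813814 (GRCm38, minus strand). Transcripts with all 3 exons summed to 4.72 TPM in replicate 1 and 6.63 in replicate 2, and those without them to 27.3 and 34.0 TPM. The share with the exons was 14.7% and 16.3% (15.5% ± 1.12). With Col6a3-207 (8.64 and 5.04 TPM) counted among them it was 32.8% and 25.6% (29.2% ± 5.15), so its size and its spread depend on that fragment. Junctions that mark exon 3, 4 or 6 as joined or skipped are shown 5′ to 3′ on the coding strand, 15 nt from each side, with bases of the alternative exons in capitals and the joined constant exons in lower case.
Exon 2 to exon 3, included: cccaacagcatggagATGTCAAAAACGGTG
Exon 2 to exon 5, skipped: cccaacagcatggagtcatggaagtcaaca
Exon 2 to exon 4, as in Col6a3-207: cccaacagcatggagCACAAGACTCAGCTG
Exon 5 to exon 6, included: ctggaaccacggaagTTCACGTAAACAAAC
Exon 5 to exon 7, skipped: ctggaaccacggaagagagcaagcgggaca

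The shares rest on the estimated TPM of whole transcripts, since reads over single junctions were not analysed here. Col6a3-203 is incomplete at its 3′ end, and Col6a3-201 itself was at 0 TPM in replicate 1 and 1.46 in replicate 2. Col6a3-201 and Col6a3-202 also end in different last exons. Col6a3-208, which lacks the alternative exons but reaches the same gene end as Col6a3-201, was at 0 TPM in both libraries. The shares therefore do not separate inclusion of the alternative exons from the choice of last exon. Col6a2 has an alternative last exon, in Col6a2-202, which held 2.21% and 2.03% of the gene's TPM.

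The 10 genes held most of the collagen RNA of the tissue by length-scaled level. Of 44 collagen genes matched, 34 reached 1 TPM in both libraries, as did 60.9% of all protein-coding genes. The 10 genes took 72.8% and 69.0% of the summed collagen TPM (70.9% ± 2.71). Among the other fibrillar collagens 5 of 5 were detected, led by the cartilage collagen gene Col2a1 at 230.4 and 296.4 TPM, Col11a1 at 51.4 and 63.5, and Col27a1 at 19.7 and 23.2. Among the other fibril-associated collagens 7 of 8 were detected, led by Col9a3 at 155.6 and 214.3 TPM, Col9a1 at 80.0 and 110.9, and Col16a1 at 57.9 and 58.9. None of the 3 further type VI chains was detected, with Col6a6, Col6a4 and Col6a5 all below 1 TPM in both libraries. The short-chain and transmembrane list had 7 of 9 detected, led by Col26a1 at 237.8 and 208.3 TPM, and the basement membrane list 6 of 9, led by Col4a1 at 81.2 and 83.1.

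**Figure D4:**
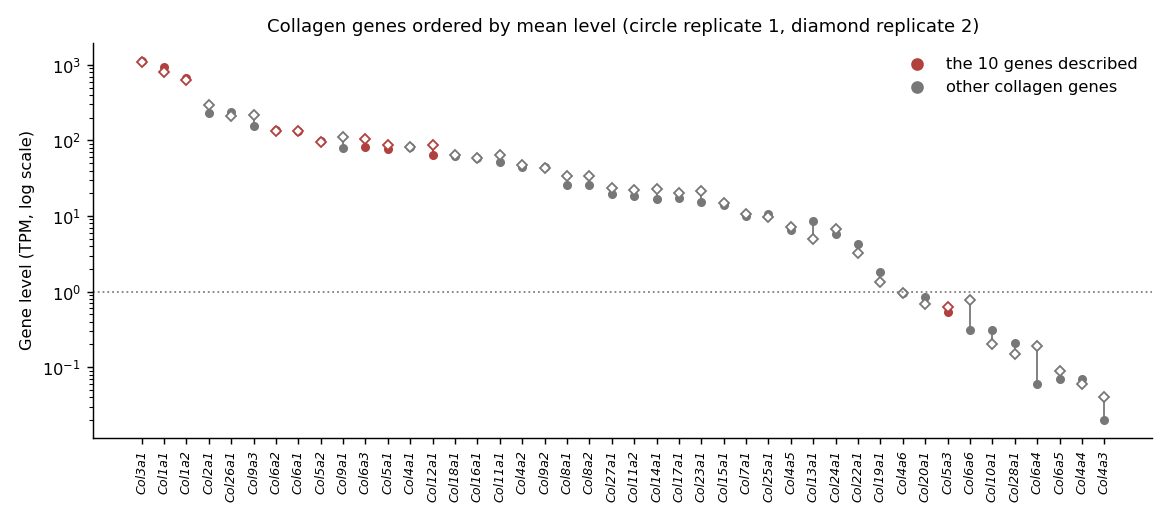
Levels in TPM on a log axis of the 44 collagen genes, ordered by mean level, with a circle for replicate 1 and an open diamond for replicate 2, the 10 genes described in red and the others in grey. Col3a1, Col1a1 and Col1a2 hold the first 3 places, Col6a2, Col6a1 and Col5a2 hold places 7 to 9, and Col5a3 lies below the dotted line at 1 TPM.

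The machinery that makes and assembles these collagens was present as well. Collagen chains are hydroxylated, folded and escorted in the endoplasmic reticulum, and 18 of 18 genes of that list were detected. Their median was 53.98 TPM against 4.67 over all protein-coding genes, of which 60.9% were detected. The highest were Serpinh1, a chaperone specific for collagen, at 1129 and 1250 TPM, P4hb, the beta subunit of prolyl 4-hydroxylase, at 521 and 558, and Ppib, a prolyl isomerase, at 396 and 419. Serpinh1 was thus in the range of Col3a1. Procollagen is then trimmed and crosslinked, and 12 of 12 genes of that list were detected, led by Pcolce, an enhancer of the C-proteinase, at 98.9 and 91.9 TPM, the crosslinking enzyme gene Lox at 51.2 and 60.3, and the C-proteinase gene Bmp1 at 47.5 and 53.0. Of the proteins that bind fibrils 9 of 10 were detected, all but Tnxb, led by Postn at 236.7 and 344.3 TPM, Lum at 214.1 and 220.9, and Fn1 at 140.8 and 174.5.

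Receptors and collagen-degrading enzymes were uneven in level. All 10 receptor genes were detected, led by the integrin subunit gene Itgb1 at 163 and 183 TPM and the discoidin domain receptor genes Ddr2 at 85.3 and 78.0 and Ddr1 at 49.1 and 52.9. The alpha subunits that make collagen-binding integrins were low, with Itga1, Itga2, Itga10 and Itga11 between 1.80 and 4.13 TPM. Of the breakdown list 4 of 6 were detected, near the 60.9% of all protein-coding genes. The highest of that list were Mmp2 at 164.3 and 190.9 TPM, Mmp14 at 148.1 and 152.3, and the lysosomal protease gene Ctsk at 28.9 and 32.1. The collagenase genes Mmp8 and Mmp13 were below 1 TPM in both libraries.

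The 2 libraries were compared to see how far the genes vary between samples of the same tissue. Each ratio is replicate 2 over replicate 1 in expected counts after TMM scaling, on the log2 scale, with a 95% exact interval that covers counting error only. The chains of types I and III were lower in replicate 2, by -0.32 for Col1a1 (-0.33 to -0.31), -0.28 for Col3a1 (-0.29 to -0.27) and -0.20 for Col1a2 (-0.21 to -0.18). Col5a1 (-0.16), Col5a2 (-0.14), Col6a2 (-0.13) and Col6a1 (-0.07) were lower by less. Col12a1 was higher in replicate 2 by 0.39 (0.33 to 0.44) and Col6a3 by 0.27 (0.22 to 0.32). Col5a3, with under 100 counts, gave 0.13 with an interval from -0.40 to 0.66.

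None of the 9 genes with a mean of 100 counts or more passed 1.5-fold. Over the 12730 gene rows with such counts, 2.40% passed it with replicate 2 higher and 0.786% with replicate 2 lower. The members' median ratio was -0.14 and the median of its size 0.20, beside -0.03 and 0.11 over all 12730 rows. Col12a1, at 0.39, lay above the 95th percentile of those rows (0.36), and Col1a1 lay below the 5th (-0.31). Scaled to the ERCC totals in place of TMM, the median of all rows moved to 0.53 and the ratios of all 10 genes were above 0, from 0.24 for Col1a1 to 0.95 for Col12a1. A change of scaling shifts all rows by nearly the same amount, so it could not change which genes lie below the median. Those were the same 7 of 10 genes that are lower after TMM scaling, which is no separate evidence. With ERCC scaling 2 genes, Col12a1 and Col6a3 (0.83), passed 1.5-fold. Of the rows that passed it 99.7% were higher in replicate 2, against 75.4% after TMM.

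Markers of several cell types also differed between the libraries. In TMM-scaled counts, the epithelial markers Krt5 (a log2 ratio of -0.37), Krt14 (-0.34) and Trp63 (-0.09) were lower in replicate 2. Cdh1 (0.16) and Epcam (0.55) were higher. The mesenchyme markers Msx1 (-0.24), Twist1 (-0.24) and Prrx1 (-0.20) were lower, and Alx1 (0.04) and Pdgfra (0.22) higher. The 5 osteoblast markers (Runx2, Sp7, Ibsp, Alpl, Spp1), all detected, summed to 443.5 TPM in replicate 1 and 325.8 in replicate 2, with the bone matrix gene Ibsp at 293 and 184. Most of that difference was Ibsp. Sp7 (24.1 and 18.2 TPM) and Alpl (91.6 and 84.5) went the same way, and Spp1 (4.58 and 7.52) was higher in replicate 2. Runx2 was higher there in TPM (30.0 and 31.6) and lower in TMM-scaled counts (a log2 ratio of -0.22). The 5 cartilage markers (Col2a1, Acan, Col9a1, Matn1, Sox9), all detected, summed to 421 and 562. The 3 tendon markers (Scx, Tnmd, Mkx), all detected, summed to 36.8 and 38.9, and the 4 erythroid markers to 12283 and 15728. Of the 4 liver markers, 1 reached 1 TPM in replicate 1 and 4 in replicate 2, and of the 4 heart markers 0 and 4. The part of these markers in the differences between the libraries was not tested.

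**Figure D5:**
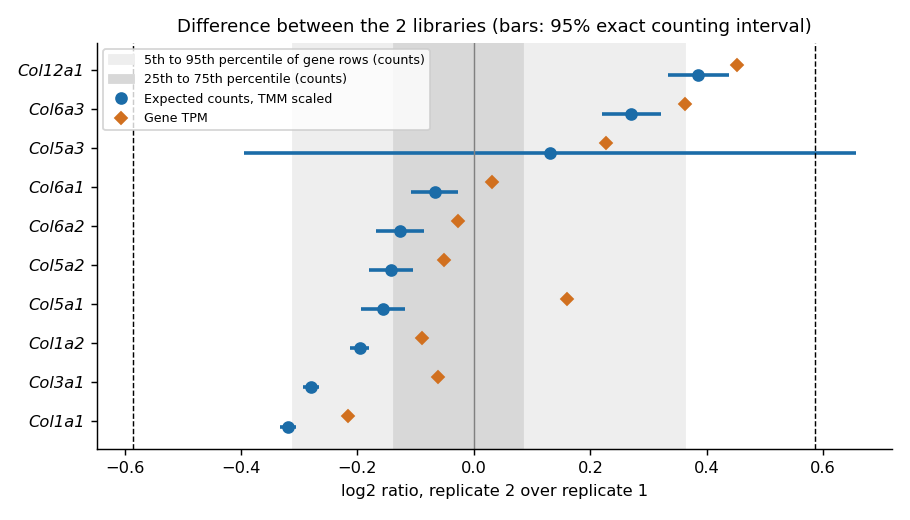
Log2 ratio of replicate 2 over replicate 1 for the 10 genes in TMM-scaled expected counts (blue circles, bars are 95% exact counting intervals) and in gene TPM (orange diamonds), over grey bands for the middle of the 12730 gene rows, with dashed lines at 1.5-fold. Blue circles run from -0.32 for Col1a1 to 0.39 for Col12a1, all inside the dashed lines, and Col5a1 and Col6a1 have their circle and diamond on opposite sides of 0.

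In TPM, Col5a1 was higher in replicate 2 (a log2 ratio of 0.16) and in counts it was lower (-0.16). The deposited mean length of the gene was 8406 nt in replicate 1 and 7246 nt in replicate 2, where the short Col5a1-202 was counted. Col6a1 also changed sign, from -0.07 in counts to 0.03 in TPM. Col5a1 shares exon bases with 2 genes on the opposite strand, 2810430I11Rik with 73.2 and 73.3 expected counts and Gm13372 with 6.24 and 5.21. No source used here states whether strand was used in counting, and reads of these genes may be split, beside 13673 and 10025 expected counts for Col5a1 itself.

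The genes lie on 6 chromosomes of GRCm38, with Col3a1 and Col5a2 24614 nt apart on opposite strands and Col6a1 and Col6a2 85161 nt apart on the same strand. Col3a1 (ENSMUSG00000026043.14) is at chr1:45311538-45349706 on the plus strand, Col5a2 (ENSMUSG00000026042.12) at chr1:45374321-45503282 on the minus strand and Col6a3 (ENSMUSG00000048126.12) at chr1:90765923-90843971 on the minus strand. Col5a1 (ENSMUSG00000026837.11) is at chr2:27886425-28039514 and Col1a2 (ENSMUSG00000029661.12) at chr6:4504814-4541544, both on the plus strand. Col5a3 (ENSMUSG00000004098.7) is at chr9:20770050-20815067 and Col12a1 (ENSMUSG00000032332.13) at chr9:79598991-79718831, both on the minus strand. Col6a2 (ENSMUSG00000020241.9) is at chr10:76595762-76623630 and Col6a1 (ENSMUSG00000001119.7) at chr10:76708792-76726168, both on the minus strand. Col1a1 (ENSMUSG00000001506.10) is at chr11:94936224-94953042 on the plus strand.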

How the data were processed

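Per the deposited notes, reads were assigned to assembly mm10 with annotation M4; the aligner and quantifier are not given in the sources used here, although the column names are those RSEM writes. Per the file headers, the authors' tables give expected counts (estimated reads, not always whole), TPM, FPKM, posterior mean TPM and credibility bounds of TPM, which were treated as a signal. The deposited TPM total includes ERCC spike-in rows (13.4% and 9.68% of it). The deposited effective length is the transcript length minus 99 nt wherever it is above 0, so short transcripts gain TPM from few reads.

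Symbols, exons and sequences came from GENCODE M21 on GRCm38 by identifier without version: 45 of 46 transcripts of the 10 genes matched, 43 with the same length. For differences between libraries, gene-row counts (28542452 and 22719352) were rounded, scaled with TMM (edgeR 4.0.16, R 4.3.3) and compared with a prior count of 1; 95% Clopper-Pearson intervals used scipy 1.17.1. The ratio between libraries was tested on simulated counts that held counting error only, and the search for glycine repeats on made-up codons. Detected means 1 TPM or more in each library. The naming rule took all 10 genes, their transcripts with 5% or more of the TPM, the 3 highest genes of each list (printed in part) and genes that overlap an exon; Col6a2-202 and the low integrin, collagenase, Tnxb and type VI genes were named after their values were seen. The 10 genes and all lists were chosen with earlier results of these data known. No test between conditions was possible.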

Additional observations from a re-analysis of the deposited data

How the results depend on the processing

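Alternatives were FPKM, posterior mean TPM, unscaled expected counts, other scalings, thresholds and filters, each library alone, and complete coding transcripts alone, the last, and counting Col6a3-207 with the alternative exons, chosen after seeing the data. Apart from the settings with each library alone, which with 2 libraries cannot leave the SD, 28 values of the main results stayed within 1 SD between libraries (for counts, within 1.5 times), 7 moved and 3 reversed. The 28 include the chain ratios and the collagen share in FPKM. Within a library FPKM is proportional to TPM, so those values had to stay and are no check. In expected counts not divided by length, the log2 ratio of Col1a1 to Col1a2 was 0.63, of Col3a1 to Col1a1 -0.18 (reversed), of Col5a1 to Col5a2 0.026 (reversed) and of Col6a1 to Col6a2 0.021, and the 10 genes held 74.99% of the collagen counts. Over complete coding transcripts, Col1a1 to Col1a2 was 0.52, Col3a1 to Col1a1 -0.16 (reversed) and Col6a3 to Col6a1 -2.09, and 8 of 9 neighbours in the order were apart by 3 SD, against 5. With ERCC totals 2 genes passed 1.5-fold, and 4660 gene rows were higher and 15 lower, against 306 and 100 after TMM, 4958 and 2919 of 43346 rows with no filter, and 140 and 22 at 2-fold. No paired analysis was possible because both libraries belong to 1 group. With 2 libraries, each SD is a rough estimate. A count of 0 allows up to 0.105 CPM in replicate 1 and 0.132 CPM in replicate 2, for counting error only.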

Other observations

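Among the 79 other listed collagen and pathway genes with a mean of 100 counts or more, 3 (3.80%) passed 1.5-fold between the libraries, near the 2.40% higher and 0.786% lower over all such gene rows. They were named after their values were seen. The transmembrane collagen gene Col13a1 had 470 and 220 expected counts (a log2 ratio of -0.80), and the crosslinking enzyme gene Loxl4 had 169 and 75 (-0.87). The collagen-binding integrin gene Itga11 had 263 and 323 (0.59).

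The choice of glycine codon differed along the set of annotated coding sequences. The codon GGT made up 50.6% of 389 glycine codons in Col1a1, 49.9% of 381 in Col1a2 and 39.9% of 414 in Col3a1. It made up 34.1% in Col5a2, 26.5% in Col5a1 and 25.1% in Col5a3, and between 18.5% (Col6a2) and 22.3% (Col6a1) in the type VI genes and Col12a1. These shares are values from the annotation and were not compared with other genes.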
